A study of Mus musculus with 14 samples.

Results

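The 7 control libraries of a study of the mouse ryanodine receptor gene Ryr2 were used to describe the transcriptome of sorted heart muscle cells of young mice, without any comparison with the libraries of the other treatment. They are 7 of the 14 libraries of the series and were taken by their labels alone, control replicates 1 to 7. Each came from the heart of a Rosa-Cas9GFP mouse, a strain named for Cas9 and green fluorescent protein placed at the Rosa locus, that received AAV-Cre, an adeno-associated virus named for the Cre recombinase, at postnatal day 1. Cardiomyocytes were freed by Langendorff perfusion (enzyme passed through the coronary vessels of the isolated heart) at 4 weeks of age and purified by FACS, fluorescence-activated sorting of single cells, and polyadenylated RNA was sequenced. The other 7 libraries carried AAV-Ryr2gRNA in place of AAV-Cre and enter no value below. The controls themselves hold a virus and, by the strain's name, a Cas9 and reporter allele, so they are not untreated cells. The labels do not say whether the samples came from separate animals or what drives Cre in the virus. Any spread between libraries may therefore be partly technical.

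A cardiomyocyte contracts when calcium released from the sarcoplasmic reticulum binds troponin on the thin filament and lets myosin heads of the thick filament pull on actin. The cell is packed with myofibrils and mitochondria, and it makes nearly all of its ATP by oxidative phosphorylation, mostly from fatty acids. Many of its proteins belong to families whose members are used by different muscles or at different ages, and the mouse heart replaces several fetal members by adult ones around birth.

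Depth was between 6313220 and 13165662 counted reads per library, with a median of 7004008, and 13688 to 14490 of the 23337 genes in the table had a count. Levels are given as TPM, the count per base of exonic length scaled to the same total in every library. They can be compared between genes only as far as that length fits each gene. CPM, the count scaled to the same total without regard to length, is given where length is not wanted. Correlation between libraries over 7108 genes with a mean count of at least 100 (log2 CPM, 21 pairs) lay between 0.968 and 0.990. A chi-square per gene was taken over a wider set, the genes with enough reads in each pair, scaled by total counts only. By it no pair agreed within counting noise (4.82 to 11.9). The first principal component held 34.9% of the variance and set replicates 4 and 5 (-11.5 and -14.9) apart from the others, with replicate 7 at the far end (16.4). The labels name no batch. Values that rest on replicates 4 and 5 are given with and without them below.

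The 5 genes that mark the labelled cell type were all among the 11 most abundant genes. Actc1, the cardiac alpha actin of the thin filament, had a mean of 29597 ± 1518 TPM (SD, n = 7), and Tnnt2, the cardiac troponin T that ties troponin to tropomyosin, had 21148 ± 1164 TPM. Myh6, the fast alpha myosin heavy chain, had 15407 ± 1237 TPM, Myl2, the ventricular regulatory light chain, 12412 ± 728 TPM, and Atp2a2, the calcium pump that refills the sarcoplasmic reticulum, 8643 ± 652 TPM. Together the 5 held 8.72% ± 0.39 of all TPM. Lists of markers of other cell types, 58 genes in all, summed to 0.210% ± 0.0604 of TPM. That sum was 0.273% in replicate 4 and 0.308% in replicate 5, against 0.152 to 0.224% in the other 5 libraries. The largest part came from the list for pericytes and smooth muscle (0.0911%), in which Acta2 alone had 739 ± 123 TPM, and from the endothelial list (0.0785%). Acta2 is also on the list of fetal, smooth or skeletal muscle counterparts below. Abcc9 (87.7 TPM), of the pericyte list, is also in a membrane family below. Which cells the RNA of these genes came from was not tested. Fibroblast markers summed to 0.0287%, macrophage and leukocyte markers to 0.00885%, erythroid markers to 0.00219% and the mixed Schwann, epicardial and adipocyte list to 0.000887%, and the hemoglobin genes Hba-a1 and Hba-a2 were listed at 0. These overlap over 99.5% and 98.8% of their exonic bases and share 76.2% and 91.95% of their 50-base words with other genes, so reads from them can be left out of a count and the 0 does not show that their RNA was absent. In bulk RNA, fewer cells of a type and less RNA per cell cannot be told apart.

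The transcriptome, as counted in this table, was steeply ordered. Ranks and shares are within the genes of the table, and no mitochondrially encoded gene was among its top 60 by mean TPM. The most abundant gene held 2.96% ± 0.152 of TPM, the top 10 held 17.4% ± 0.289, the top 20 24% ± 0.384 and the top 100 45.6% ± 0.901. In each library between 122 and 149 genes (median 131) were enough to reach 50% of TPM, while 90% took 2664 to 3156 genes. A mean of 11044 ± 262 genes reached 1 TPM, 6555 ± 203 reached 10 TPM, 1314 ± 30.1 reached 100 TPM and 149 ± 3.18 reached 1000 TPM. Exactly 10 genes passed 10000 TPM in every library. At the other end, 7182 genes had no count in any control, and 5052 more averaged under 1 TPM and together held 0.126% of it.

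**Figure D1:**
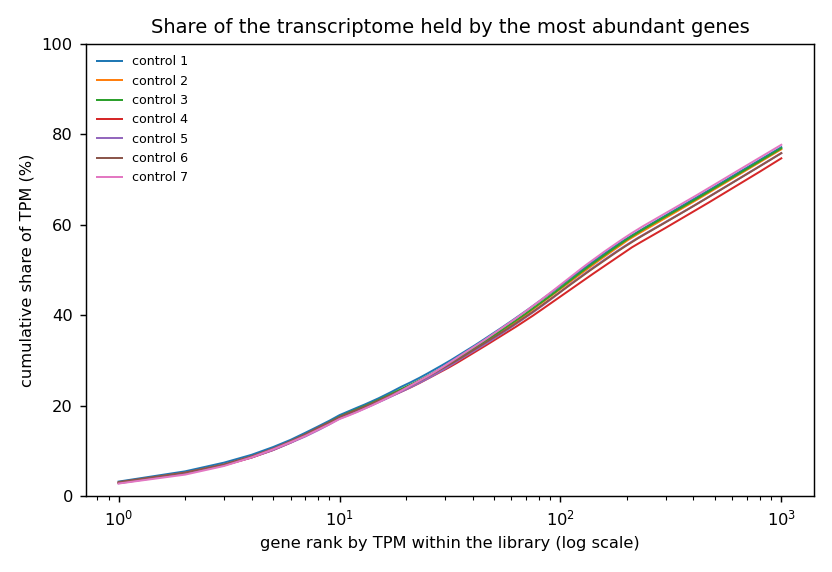
Cumulative share of TPM (y axis, %) against gene rank within each library (x axis, log scale), with 1 line for each of the 7 control libraries. The lines lie close together, and 50% is reached between rank 122 and rank 149.

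Actc1 was the most abundant gene of the table in 7 of 7 libraries. It lies on mm10 chromosome 2 from 114047289 to 114052811 on the minus strand, with 7 exons that add up to 1390 bases. Its TPM was lowest at 27815, 29238 at the median and 32138 at the highest. The next genes by mean TPM were Tnnt2 (21148), Tnni3, the cardiac troponin I that holds the thin filament off (18601 ± 725), Mb, the oxygen store myoglobin (17162 ± 1201), Myl3, the ventricular essential light chain (16840 ± 395), and Slc25a4, the mitochondrial ADP/ATP carrier (16415 ± 564). Myh6 came seventh, followed by Atp5b, the catalytic beta subunit of ATP synthase (14219 ± 469), Myl2, and Tpm1, alpha tropomyosin (12100 ± 471). These 10 genes were the top 10 in every library. They comprise 7 genes of the sarcomere and 1 each of oxidative phosphorylation, the energy shuttle and oxygen binding.

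The order within that group was less sharp than its membership. Of the 19 neighbouring pairs among the top 20, only 5 stood in the same order in all 7 libraries. The other 14 changed order in at least 1 library, and some in only 1, such as Tnnt2 above Tnni3 (6 of 7, mean log2 ratio 0.18 ± 0.12). Actc1 was above Tnnt2 in 7 of 7, at a mean log2 ratio of 0.49 ± 0.07. Mb ranged from 15754 to 19099 TPM and Myl3 from 16362 to 17585 TPM, and the ranges overlap. The order also depends on the length used. With 200 bases taken off each length, Myl2 (14843 TPM) stood above Myh6 (13037) and Atp5b (13021). From rank 11 on came Atp2a2, Tnnc1, the calcium-binding troponin C (7380 ± 294 TPM), Ckmt2 and Cox4i1 (both 7011 TPM), and then further subunits of the respiratory chain. Among the top 30 genes 10 were subunits of oxidative phosphorylation and 9 were sarcomere genes, and among the top 60 the counts were 27 and 12. A single member of the top 30, Fth1, the heavy chain of the iron store ferritin (4540 ± 130 TPM), belonged to none of the classes used.

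**Figure D2:**
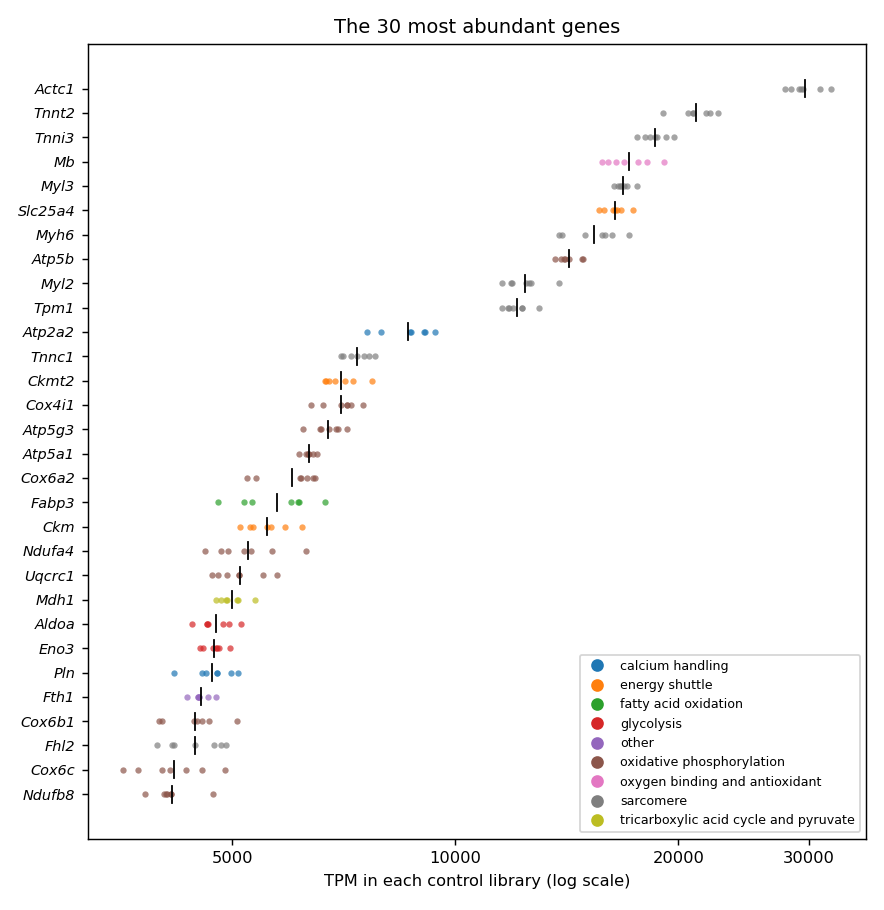
TPM (x axis, log scale) of the 30 genes with the highest mean TPM (y axis, in order). Each point is 1 of the 7 control libraries, the black bar is the mean and the colour is the functional class; Actc1 stands clear at 27815 to 32138, and neighbours further down overlap.

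Counting reads without regard to length gave another head of the list. By CPM, Myh6 was first in 7 of 7 libraries at 47341 ± 2953, ahead of Atp2a2 (25014 ± 1474) and Actc1 (20814 ± 1010). Myh6 has 39 exons and 6079 exonic bases (chromosome 14, 54941921 to 54966607, minus strand), so a transcript of it yields more reads than 1 of Actc1. Of the top 20 genes by TPM, 12 were also in the top 20 by CPM. Ttn, the giant spring of the sarcomere, has 104320 exonic bases in the table. It ranked 38 by CPM (2249 ± 235) and 2828 by TPM (42.7 ± 4.98). Its exonic length adds up exons of all annotated forms, of which a single transcript uses only a part. Ryr2, the calcium release channel and the gene the study targets in its other group, had 105 exons and 16813 exonic bases (chromosome 13, 11553103 to 12106945, minus strand). Its level in the controls was lowest at 62.3, 80.3 at the median and 83.3 TPM at the highest (mean 75.6 ± 8.02), rank 1710, and 643 ± 59.3 CPM, rank 197.

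Genes with short exonic length held more of the TPM than of the counts. The classes given here are of the 11103 genes with a mean of at least 1 TPM. The 737 genes of 500 to 1000 bases held 24.2% of TPM and 9.08% of counts. The 2548 genes of 1000 to 2000 bases held the most TPM, 37.4%, and 27.7% of counts. The 1744 genes of 5000 to 10000 bases held 5.65% of TPM and 17.7% of counts.

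Sarcomere genes held 16.1% ± 0.367 of TPM, with a range of 15.6 to 16.8% over the 7 libraries. All 37 genes of the adult sarcomere list reached 1 TPM, 28 reached 100 TPM and 16 reached 1000 TPM. Next to the genes already named stood Fhl2, a titin-associated LIM protein, Mybpc3, the cardiac myosin binding protein C (3613 ± 321 TPM), Csrp3, a Z-disc LIM protein (3096 ± 63.9), and Actn2, the alpha actinin that cross-links actin at the Z-disc (2936 ± 200). The lowest was Myot, myotilin, at 14.6 ± 1.78 TPM. The list of 29 fetal, smooth or skeletal muscle counterparts summed to 0.15% ± 0.0314 of TPM, and 12 of these genes stayed under 1 TPM.

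Nuclear genes of oxidative phosphorylation held 18.4% ± 0.92 of TPM, with a range of 17 to 19.8%. Since they are short, the same 83 genes held only 9.07% ± 0.49 of counts, while the sarcomere list held 15.9% ± 0.379 of counts. The 2 lists therefore change places with the unit, and no order between them is read from these data. By complex, 37 genes of complex I, the NADH dehydrogenase, held 5.51% of TPM, 16 genes of ATP synthase 5.43%, 15 genes of cytochrome c oxidase 3.98%, 9 genes of complex III 2.46% and the 4 genes of succinate dehydrogenase 0.901%. Within complex I the middle of the subunits lay between 917 TPM (lower quartile) and 1703 TPM (upper quartile), although its subunits are assembled in equal number. The highest was Ndufa4 (5257 TPM), which was listed with complex I by its name and is now placed in cytochrome c oxidase. Ndufs5 was listed at 0 in every library, and 95.1% of its exonic bases are shared with another gene model, BC002163. Reads that fall on such shared bases can be left out of a count, and the part of this in the value was not tested.

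The remaining fuel pathways followed. Tricarboxylic acid cycle and pyruvate genes held 3.61% ± 0.0967 of TPM, led by the malate dehydrogenases Mdh1 (4993 ± 206) and Mdh2 (3890 ± 92.1). Fatty acid uptake and oxidation held 3.35% ± 0.206, led by Fabp3, the heart fatty acid carrier (5749 ± 664 TPM), Etfb, an electron carrier from fatty acid breakdown (2928 ± 209), and Lpl, lipoprotein lipase (2603 ± 172). The creatine and adenylate shuttle held 3.64% ± 0.0846, glycolysis with glucose uptake 2.5% ± 0.0724 and glycogen genes 0.360% ± 0.0187. Together oxidative phosphorylation, the cycle and fatty acid oxidation came to 25.4% ± 1.04 of TPM from 141 genes.

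Other functions took less. Calcium handling genes held 1.95% ± 0.0789 of TPM. Most of that came from Atp2a2, its inhibitor Pln (4704 ± 301 TPM), the calcium sensor S100a1 (1994 ± 191) and the luminal calcium buffer Casq2 (1787 ± 114). As many as 63.1% of the 50-base words of Pln's annotated transcripts recur in another gene, so its count is uncertain. The oxygen and antioxidant list held 2.37% ± 0.13 of TPM, most of it Mb. Heat shock proteins and chaperones held 1.04% ± 0.0366, led by the small heat shock proteins Cryab (2293 ± 101) and Hspb6 (1764 ± 85.1), and chaperones of the endoplasmic reticulum 0.305% ± 0.0202, led by Hspa5 (1140 ± 87.5). Sarcolemmal channels and pumps held 0.382% ± 0.0169 from 31 genes, with Gja1, connexin 43 of the gap junction, highest at 991 ± 78.6 TPM. Secreted factors held 0.305% ± 0.0643, and 0 counts were listed for Fgf21 and Ostn.

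Regulators summed to less than the adult sarcomere list and each of the fuel lists above. The 28 cardiac transcription factors and cofactors summed to 0.246% ± 0.0205 of TPM, and 6 of them reached 100 TPM. The highest were Ankrd1, a stretch-sensitive cofactor (801 ± 160 TPM), and Hopx (556 ± 33.6), and Gata4, a zinc finger factor of heart development, had 153 ± 11.8. Nkx2-5, the homeobox factor of the cardiac lineage, had 63.5 ± 7.26 and Tbx5, a T-box factor, 13.6 ± 1.27. Clock genes summed to 0.0418% of TPM, with none at 100 TPM, and cell cycle genes to 0.00625%, with Mki67, a marker of dividing cells, under 1 TPM.

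Cytosolic ribosomal protein genes summed to only 0.916% ± 0.0705 of TPM over 81 genes, with none at 1000 TPM. Of these genes, 49 share more than 20% of their 50-base words with other genes (median 25.2% over the list), since the genome holds many processed copies of them. Reads that match several places can be left out of a count. Rpl26 was listed at 0, with 95.8% of its exonic bases shared with Gm15772. The part of multiple matches in the low sum was not tested, and it stands here as the level in this table, not as the level in the cell.

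To relate these levels to the bases around the start sites, the 60 bases before the annotated start were read for the letters TATAA on the gene's own strand. The sequences below are from RefSeq, build GRCm38.p6, the assembly of mm10, 5′ to 3′, with TATAA in capitals. They are picked examples of sarcomere and muscle enzyme genes that hold the letters, beside genes of oxidative phosphorylation that do not. Most sarcomere genes lack them, and Actc1, Myl3, Myl4 and Myl7, not printed here, did not hold them either.
Tnnc1: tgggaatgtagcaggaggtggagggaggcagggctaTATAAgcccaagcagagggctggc
Ttn: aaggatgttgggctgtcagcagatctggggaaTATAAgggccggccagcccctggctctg
Trim63: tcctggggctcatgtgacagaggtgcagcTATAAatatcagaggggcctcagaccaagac
Ckm: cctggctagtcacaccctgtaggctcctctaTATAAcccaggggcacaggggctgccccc
Atp5b: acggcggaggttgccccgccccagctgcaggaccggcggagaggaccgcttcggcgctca
Uqcrc1: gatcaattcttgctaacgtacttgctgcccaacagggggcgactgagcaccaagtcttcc
Sdhb: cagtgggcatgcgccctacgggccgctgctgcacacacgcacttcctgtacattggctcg

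The windows are Tnnc1 chr14:31208252-31208311 (plus), Ttn chr2:76982548-76982607 (minus), Trim63 chr4:134315060-134315119 (plus), Ckm chr7:19411034-19411093 (plus), Atp5b chr10:128083247-128083306 (plus), Uqcrc1 chr9:108936588-108936647 (plus) and Sdhb chr4:140961211-140961270 (plus). In Tnnc1 the letters began 24 bases before the start, in Ttn 28, in Trim63 31 and in Ckm 29. Of the 30 adult sarcomere genes with a start in the table, 5 held the letters (16.7%), and of 67 oxidative phosphorylation genes 0 did. A gene was counted if any of its annotated starts had the letters, as with Fhl2, in which not every start had them. The letters stood in 6.62% of 27025 genes of all kinds, in 3.44% of those at 1 TPM or more and in 6.5% of those at 1000 TPM or more. On either strand the shares were 16.7% for sarcomere, 1.49% for oxidative phosphorylation and 8.47% for all genes. In the 250 bases before the start, the median number of CG pairs was 4 for sarcomere genes and 14 for oxidative phosphorylation genes, beside 6 over all genes and 16 over genes at 1 TPM or more. A match is a description of letters in the window, and no factor was measured.

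Which member of a gene family the cells use was read from the share of each family's summed TPM held by its most abundant gene. Over 70 families, that gene was above the next in all 7 libraries in 66. By the exact two-sided sign-flip permutation test over all sign assignments of the 7 libraries, with Benjamini-Hochberg adjustment over the 70, 68 families were called (97.1%). The smallest p this design allows is 0.0156, which becomes 0.0166 after adjustment and is the value of all 66. The pair tested in each family was chosen from these same libraries, so the share is the informative value and the test only describes how steadily the order held. In 2 of the 68, led by Pdk2 and Adcy6, it held in 6 of 7 libraries. The leading gene held over 95% in 25 families and under 70% in 22.

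Contractile families were the most exclusive, with a median leading share of 99.3% over 13 families and 11 of them above 90%. Myh6 held 99.7% ± 0.0455 of the myosin heavy chains. Myh7, the slow beta form that dominates before birth, had 20.1 TPM at the lowest, 30.7 at the median and 43.8 at the highest, against 13801 to 17172 TPM for Myh6. The values of the genes lie far apart in each library. Of their 50-base words, 19.8% (Myh6) and 20.3% (Myh7) recur in other genes. Tnni3 held 99.9% ± 0.0121 of the troponin I genes. The fetal Tnni1 stood at 3.52 ± 1.48 TPM. Tnnt2 held 99.7%, Tpm1 99.4%, Mybpc3 99.3% and Myl3 98.6% of their families. Actc1 held 96.8% ± 0.517 of the sarcomeric and smooth muscle actins, beside Acta2 of smooth muscle and Acta1 of skeletal muscle (241 ± 70.6 TPM). A family with 2 prominent members was the M-band myomesins, in which Myom2 held 60.6% ± 2.51 and stood 1.54-fold above Myom1.

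Calcium families had a median leading share of 95.2% over 12 families. Atp2a2 held 99.96% ± 0.0133 of the reticulum calcium pumps, Ryr2 99.6% ± 0.137 of the ryanodine receptors, Slc8a1 99.6% ± 0.572 of the sodium-calcium exchangers, Jph2 95.5% of the junctophilins and Casq2 94.9% of the calsequestrins. Slc8a1 reached only 15.6 ± 2.01 TPM over 18599 exonic bases. Among receptors for inositol trisphosphate, Itpr1 stood 1.36-fold above Itpr2.

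Membrane families were more mixed, with a median of 75.9% over 12. Gja1 held 96.7% of the connexins. Adrb1 held 93.3% ± 3.46 of the beta adrenergic receptors, at 19.7 ± 2.89 TPM.

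Metabolic families had a median of 83.1% over 23. The heart and muscle forms led in 3 subunits of cytochrome c oxidase: Cox6a2 held 93.5% ± 0.543, Cox8b 83.1% ± 2.37 and Cox7a1 66.9% ± 1.85 of their families, the last not above Cox7a2 by counts without length (mean log2 ratio -0.027). Slc2a4, the insulin-responsive glucose transporter, held 89.1% ± 0.963 of its family (425 ± 34.0 TPM), while Slc2a1 had 12.5 ± 2.62 TPM. Ldhb, the heart form of lactate dehydrogenase, held 65.2% ± 2.2, with 3337 to 3699 TPM against 1685 to 2156 for Ldha. Ckmt2, the mitochondrial creatine kinase, held 55.1% ± 1.53 and Ckm, the cytosolic muscle form, most of the rest, a 1.26-fold difference that held in 7 of 7 libraries.

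Some shares rest on genes whose counts are uncertain. Cpt1a, the liver form of the enzyme that admits fatty acids to mitochondria, had 24.6 ± 2.63 TPM and Cpt1b, the muscle form, 5.26 ± 0.816. Yet 94.8% of the exonic bases of Cpt1b lie under BC090627 and 77.4% of its 50-base words recur in other genes, so its level here cannot be read as that of the transcript. In the same way Eno1, with 92.8% of its exonic bases shared with Gm5506, makes the 99.98% share of Eno3 an upper value. Rpl3l, a muscle form of a ribosomal protein, held 83.1% ± 3.36 beside Rpl3 (262 ± 13.4 against 53.2 ± 10.4 TPM), and Eef1a2 held 65.9% ± 4.59 beside Eef1a1, but 34.8% of the words of Rpl3 and 45% of those of Eef1a1 are shared.

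Regulator families were the least exclusive, with a median of 70.2% over 10 and none above 90%. Gata4 held 74.5% ± 3.65 of the GATA factors and Mef2a 58.3% ± 1.76 of the MEF2 factors. Esrra, a nuclear receptor that drives mitochondrial genes, held 78.6% ± 2.52, and its coactivator Ppargc1a 57.6% ± 4.67 beside Ppargc1b. Ppara, the fatty acid receptor, held 65.9% ± 6.23 at 15.3 ± 2.58 TPM.

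**Figure D3:**
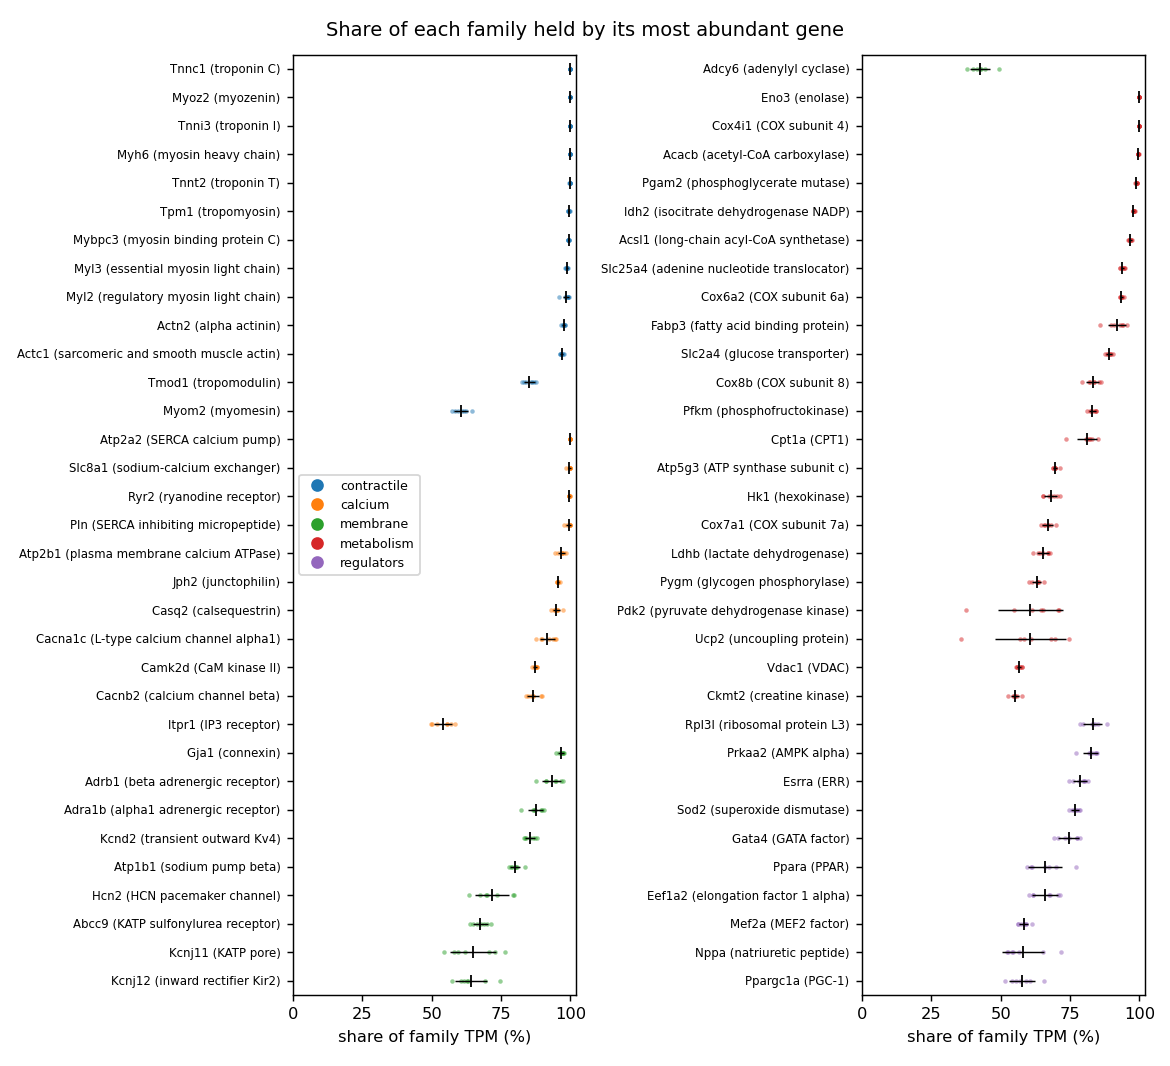
Share of the family's summed TPM (x axis, %) held by the most abundant gene of each of 66 families (y axis, gene and family). Coloured points are the 7 control libraries, by class, and black bars are mean ± SD; contractile families crowd near 100%, while Ucp2 and Pdk2 spread most widely between libraries.

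Pairs that changed order between libraries were few. Pdk2 and Pdk4 are kinases that switch off pyruvate dehydrogenase, and Pdk4 rises in fasting. Pdk2 was even, at 613 to 710 TPM, and Pdk4 was 175 TPM at the lowest, 274 at the median and 1090 in replicate 2, where alone it was above Pdk2 (adjusted p = 0.0483 over the 7, exact permutation test). That call was lost when any single library other than replicate 2 was left out. With replicate 2 against the order, no call is possible in fewer libraries, so the loss was fixed in advance. The mitochondrial carriers Ucp2 and Ucp3 had the same exception: Ucp3 was above Ucp2 in replicate 2 only, and the pair was not called (adjusted p = 0.0793, exact permutation test). Without replicate 2 it was called (adjusted p = 0.0322, exact permutation test). Every library left then had the same order, so the test could only give its smallest p, and that call adds nothing.

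Most genes were steady from library to library. The common biological coefficient of variation was 12.6%, and 11.2% without replicates 4 and 5. It is the spread beyond counting noise that edgeR fits in common to the genes passing its filter (10214 over the 7 libraries). Per gene, the excess coefficient of variation (the CV of TMM-scaled CPM with the expected counting variance taken off) had a median of 7.77% over the 7108 genes with a mean count of at least 100, and 92.9% of these genes were under 20%. It was 3.05% for Atp5b, 6.64% for Actc1, 7.18% for Myh6, 10.5% for Ryr2 and 11.4% for Ttn. For 623 of 6729 named genes the spread was no larger than counting noise. These tie at an excess of 0, and the 10 among them with the lowest raw CV were Dstyk, Pgk1, Eif3a, P4hb, Aimp2, Plk1s1, Sec31a, Gmppa, Gpbp1 and Slc48a1. Pgk1, a glycolytic kinase, ranged from 152 to 158 TMM-scaled CPM and P4hb, a folding enzyme of the reticulum, from 362 to 378.

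**Figure D4:**
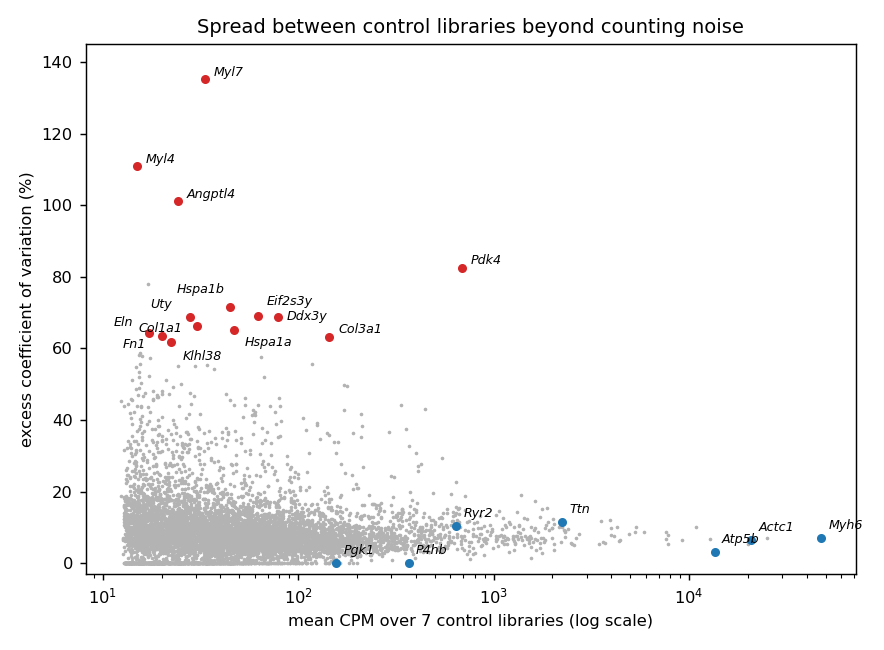
Excess coefficient of variation (y axis, %) against mean CPM (x axis, log scale) for 7108 genes over 7 control libraries, 1 point per gene. Of the 15 most variable named genes, 14 are in red, and examples of steady or abundant genes in blue; Myl7 is at 135% and Atp5b at 3.05%.

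Members of a few of the chosen gene lists were among the genes that did vary, and they are described in turn. The libraries in which they were highest overlapped between lists. How many of all variable genes such lists cover was not counted. Genes of the atrium came first. Myl7, the atrial regulatory light chain, had TPM values of 31.4, 64.0, 188, 60.2, 423, 0.534 and 10.1 in replicates 1 to 7, an excess CV of 135%. Myl4, the atrial essential light chain, had 10.3, 15.6, 68.8, 24.7, 101.9, 4.64 and 8.12 TPM (111%). Sln, sarcolipin, an atrial partner of the calcium pump, had 8.34, 11, 63.2, 20.5, 99.97, 0 and 1.72 TPM. All 3 were highest in replicate 5, then in replicate 3, and lowest in replicates 6 and 7. Nppa, atrial natriuretic peptide, followed at a higher floor: 553 TPM at the lowest, 898 at the median and 1758 in replicate 5, with 1661 in replicate 3. The summed atrial list had the same 2 libraries on top, at 2542 and 2137 TPM against 719 to 1146 in the others. Nppa made up most of both sums, so they largely repeat its values. Of the 7 atrial genes with enough counts, 5 were in the top 10% by spread. Pam, another gene of the list, was steady (excess CV 6.51%). In the family of regulatory light chains this moved the share of Myl2 from 99.3% at most to 95.9% in replicate 5. Nppb, brain natriuretic peptide, was highest in replicate 3 (1277 TPM), with 505 to 812 in the others.

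A fasting and hormone group peaked in replicates 1 and 2. Pdk4 had an excess CV of 82.5%. Angptl4, a secreted inhibitor of lipoprotein lipase, had 4.4 TPM at the lowest, 18.4 at the median and 78.5 in replicate 2 (101%). Pdk4, Angptl4 and Ucp3 were each highest in replicate 2 and next in replicate 1. Over the list of 23 starvation and hormone responsive genes, 13 of the 19 with enough counts fell in the top 10% of all genes by spread, and the median excess CV was 32.2%. Not every member went along. Txnip, a glucose-responsive inhibitor of thioredoxin, was highest in replicate 7 (221 TPM), as was Klf15, a factor induced by fasting and glucocorticoid (69.3 TPM, with 69.0 in replicate 2), and replicate 5 was lowest for Klf15 (23.0). Of the 12 clock genes with enough counts, 5 were in the top 10%.

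Immediate early genes, which respond within minutes to stress and handling, had the highest median excess CV of the lists other than cell type markers and sex-linked genes (35.5%), with 17 of 18 genes in the top 10%. Fos had 89.5 TPM in replicate 1, 172 in replicate 7 and 254 to 510 in the other 5. Egr1 was also lowest in replicates 1 and 7 (27.1 and 44.1 TPM) and 106 to 199 elsewhere. Atf3, a stress factor, was high in replicates 3, 4 and 5 (174 to 199.9 TPM) and 43.9 to 109 in the rest. The list as a whole summed to 1473 TPM in replicate 1, 1740 in replicate 7 and 2451 to 3581 in the others. The inducible heat shock genes Hspa1a and Hspa1b moved together, at 74.5 and 75.7 TPM in replicate 2 and between 7.98 and 10.5 in replicates 3 and 7. The pair is near-identical (66.9% and 64.3% of words shared), so their counts are not separate measurements.

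Genes of connective tissue, vessels and leukocytes were highest in replicates 4 and 5. Col3a1, a fibrillar collagen, had 109 and 96.1 TPM there and 27.1 to 36.5 in the other 5, and Col1a1 had 26.6 and 25.4 against 6.42 to 8.18, so the values did not overlap. All 7 fibroblast markers with enough counts and all 11 endothelial ones were in the top 10% by spread (median excess CV 55.3% and 36.9%). The summed fibroblast list was 550 and 487 TPM in replicates 4 and 5 and 165 to 221 in the others. The macrophage list was 164 and 167 TPM there against 36.4 to 95.7, with Lyz2, lysozyme, its highest gene. In the endothelial list the lead was less clear, at 953 and 1302 TPM against 446 to 862. Cardiomyocyte markers summed to 88310 and 84455 TPM in the same 2 libraries, inside the range of the others (80008 to 92081). Whether these markers have a part in the place of replicates 4 and 5 on the first principal component was not tested.

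By contrast, 0 of 37 sarcomere genes and 0 of 36 complex I genes were in the top 10% by spread. Of 44 genes of complexes II to V, 3 were (median excess CV 11.2%). The medians of the sarcomere and complex I lists were 7.99% and 10.9%, beside 7.77% over all genes. For glycogen genes it was 5.38%, for glycolysis 6.97% and for the creatine and adenylate shuttle 6.60%. The fetal and other muscle sarcomere list stood at 21.7%, with 9 of 12 genes in the top 10%.

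Sex was mixed. Ddx3y and Uty, on the Y chromosome, had no counts in replicates 3 and 6 and 44.2 to 49.9 and 13.7 to 15.4 TPM in the other 5. Xist, which silences an X chromosome in females, had 1.09 and 1.11 TPM in replicates 3 and 6 and 0 elsewhere. The 5 libraries with Y-linked RNA and the 2 with Xist thus separate without overlap. Of the libraries with the highest atrial sums, replicate 3 had Xist and replicate 5 had Y-linked RNA. Replicates 4 and 5, highest in the connective tissue genes, both had Y-linked RNA. Whether sex has a part in either group was not tested.

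**Figure D5:**
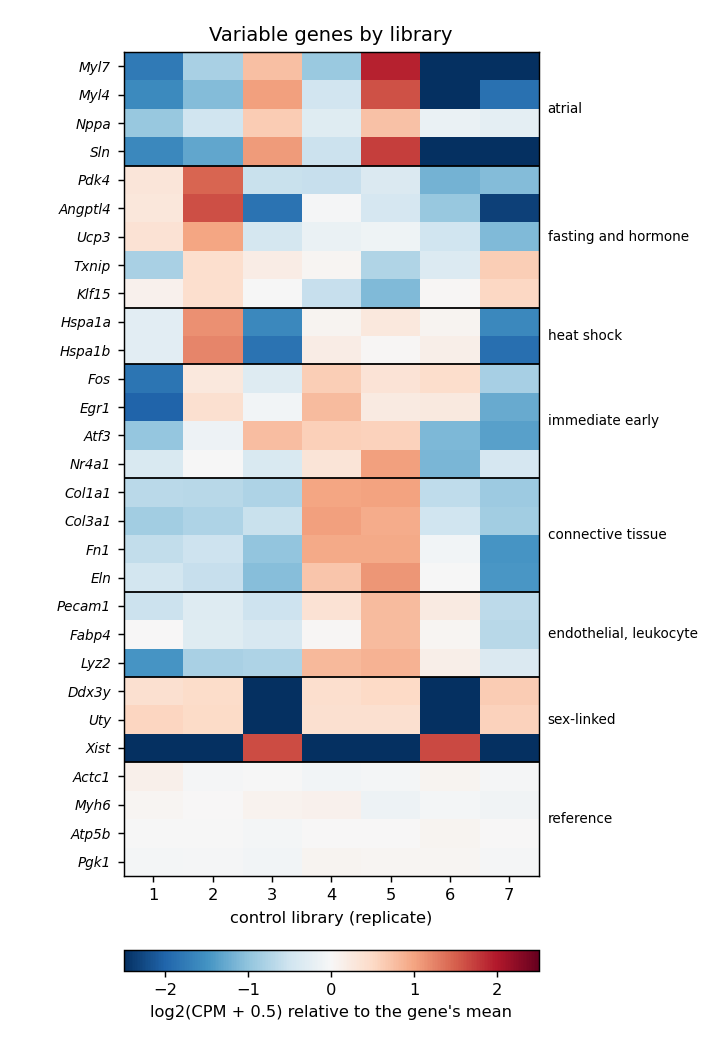
Heat map of 29 genes (rows, by group) in the 7 control libraries (columns); colour is log2(CPM + 0.5) relative to the mean of the gene, with values beyond 2.5 in either direction drawn at the end of the scale. Atrial genes are red in replicates 3 and 5, Pdk4 and Angptl4 in replicate 2, connective tissue genes in replicates 4 and 5, and the 4 reference genes stay near 0.

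Without replicates 4 and 5, the 3 most variable genes were still Myl7, Myl4 and Angptl4 (129%, 124% and 115%), and the collagens, Eln, Fn1 and Klhl38 left the top 15. Of the 15 most variable genes, 10 remained. In all 7 libraries, 35 of the 7108 genes had an excess CV over 50%.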

How the data were processed

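The deposited table gives whole-number read counts per gene, made by the authors and not normalized, for 23337 genes. The submitters' processing notes name mm10, STAR, featureCounts, DESeq2 and DESeq, with no order or role. For versions, annotation and strand setting: not given in the sources used here. Per the labels' protocols, RNA was taken with a PureLink micro-scale kit and libraries were made with SMART-Seq v4 and Nextera XT, a chemistry that does not mark strand, so a gene and its overlapping or antisense partner cannot be told apart. Mitochondrially encoded genes were not analysed here, so ranks and shares of TPM do not describe them. Only the 7 control columns were used; the authors' own comparison was not.

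TPM was computed from the deposited counts and the deposited exonic length, which adds up all exons of a gene. CPM used total counts; spread used TMM-scaled CPM (edgeR 4.0.16, R 4.3.3), with DESeq2 as an alternative, and the spread calculation was tested on simulated data. Depth limits single low genes; counting noise was taken off each CV and covers counting error only. Leading family genes were compared on log2(TPM + 0.1). Shared words of 50 bases came from GENCODE vM21 transcripts. Alternatives were another length, no length, other added values, filters and left-out libraries. The libraries, 30 gene lists and 70 families were chosen with earlier results of these data known. Genes were named by rule: the highest by TPM and CPM, family members, leading list members, the most and least variable, and the strongest on the first principal component; models known only by clone or serial names were skipped. Results for some genes are not reported here. A few further genes were added after their values were seen (Sln, Ucp3, Lyz2, Slc2a1, Tbx5, Mki67).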

Additional observations from a re-analysis of the deposited data

Results flagged for a closer look

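In 13 of 169 values looked at, the highest or lowest of the 7 libraries stood apart. Its distance from its nearest neighbour was more than 0.568 of the whole range. A rate of about 1 in 20 would hold by chance only for independent, normally distributed values. Those looked at include genes named for their spread in these same libraries, overlapping values and family shares close to their upper bound. The count of 13 can therefore not be compared with chance. The 13 values spread over 6 of the libraries, with 4 in replicate 5 and none in replicate 6.

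Among single genes, 3 stood out by a high value in replicate 2 or 3: Pdk4 (1090 TPM in replicate 2, next 482), Angptl4 (78.5 TPM in replicate 2, next 30.6) and Nppb (1277 TPM in replicate 3, next 812). Fabp4, a fatty acid binding protein of endothelium, had 806 TPM in replicate 5, with 501 next. In replicate 7, Ndufb8 had 4714 TPM (next 4136) and Cpt1b 6.92 TPM (next 5.42).

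Among family shares, Myl2 was lowest in replicate 5 (95.9%, next 98%), where Prkaa2 of the AMPK catalytic subunits was also lowest (77.1%) and Tnnc1 was at 99.99% instead of 100%, which is 1 read of Tnnc2 in all 7 libraries together. Cpt1a was lowest in replicate 7 (73.5%). In replicate 4 Slc8a1 was at 98.4%; over all 7 libraries the other members of its family had only 6 (Slc8a3) and 2 (Slc8a2) reads. Tnnt2 was lowest in replicate 1 (99.6%), and Atp5g3 of the ATP synthase ring was highest in replicate 2 (71.3%).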

How the results depend on the processing

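No paired analysis was possible because only 1 group enters and the replicate numbers pair nothing within it. Length mattered most. Without it (shares of counts), the 20 most abundant genes held 22.9%, 249 genes reached 50%, and oxidative phosphorylation held 9.07%; with 200 bases taken off each length it held 21.7%. That shorter length also moved the mean TPM of 28 named genes by at least their SD between libraries, and of 40 by less. Leaving out of the total the 10 most abundant other genes put the sarcomere list at 17.8%. The common biological coefficient of variation was 13.7% with no filter, 12% at a mean count of at least 100, 11.2% without replicates 4 and 5, 12 to 13.2% with each library left out in turn, and 20.01% as the median of the DESeq2 dispersion trend over 16155 genes; the cause was not tested. The count of families whose leading gene was above the next in every library stayed between 66 and 68 under all alternatives run. Without length, leading genes that fell below the next included Kcnj12 (mean log2 ratio to Kcnj2 -0.25) and Cox7a1 (to Cox7a2 -0.027), which the length term itself produces. The calls of Pdk2 over Pdk4 and of Adcy6 over Adcy5 were lost with single libraries left out (adjusted p up to 0.0965, exact permutation test). Each pair had 1 library against its order, so losing the call without any of the others was fixed in advance. With 5 libraries no family can reach p under 0.05 (smallest 0.0625), so only directions were read. Ranking by edgeR's tagwise dispersion kept 10 of the 15 most variable genes, and 4 of the others did not pass its filter.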

Other observations

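Lars2, the mitochondrial leucyl-tRNA synthetase, had 2014 ± 211 TPM (SD, n = 7), rank 76. The next of the 17 mitochondrial tRNA synthetase genes, Iars2, had 88.6 ± 4.52 TPM and the lowest, Wars2, 4.13 ± 0.672. The gene was noticed after its values were seen. Whether reads from other sequences add to the Lars2 count was not tested, so its value stands as the level in this table.

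Among 31 genes with at least 15000 exonic bases and a mean of 1 TPM, Pde4dip, a scaffold of the sarcomere and Golgi that binds phosphodiesterase, was the highest at 265 ± 32.4 TPM (rank 484), above Ryr2 (75.6 ± 8.02).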
